A study of Sus scrofa with 75 samples.

Results

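The miRNAs described here are ssc-miR-486, ssc-miR-451 and ssc-miR-144, which are known as red cell (erythroid) miRNAs in mammals. They were 3 of the 457 mature miRNA names counted in peripheral blood mononuclear cells (PBMC) of pigs. They were chosen by measured counts: miR-486 was selected on its share of the counts at each age, and miR-451 and miR-144 were singled out beside it after their values had been seen. The level of miR-486 by age is therefore a description with no test, and the p-values of miR-451 and miR-144 below are not independent evidence. All 3 passed the filter on low counts, which 209 mature miRNAs passed.

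The study asked how exposing piglets to topsoil changes miRNA and mRNA in blood cells. The control group had ordinary farrowing crates and no soil. In the topsoil group soil was renewed every day, starting on day 4 and stopping at weaning, which the treatment text puts at day 20 and the design text at day 21. The nursery that housed both groups after weaning held no soil. Blood of each pig was taken on days 11, 20 and 56, from piglets of median body weight in their litter, and PBMC were separated on a Histopaque gradient and stored frozen. There were 8 control pigs and 5 topsoil pigs with a small RNA library at each age, which gave 39 libraries. In bulk samples such as these, fewer cells of a type and less RNA per cell cannot be told apart.

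As background, maturing red cell precursors accumulate a small set of miRNAs. The hairpins of miR-144 and miR-451 come from a shared primary transcript that the erythroid factor GATA1 activates. The short hairpin of miR-451 is cut by Argonaute and not by Dicer, while miR-144 takes the usual Dicer route. miR-486 is made from the gene of ankyrin-1, a protein of the red cell membrane skeleton, and is also made in muscle.

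The mature sequences are shown because the 3 miRNAs are counted as separate products. They were taken from RefSeq on the Sscrofa11.1 assembly, in which all 3 names were matched, and capitals mark the seed, bases 2 to 8.
miR-486: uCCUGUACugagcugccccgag
miR-451: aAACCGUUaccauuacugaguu
miR-144: uACAGUAUagaugauguac
The seeds differed from each other, and 0 other names of the 369 annotated mature names had the seed of any of them. miR-101 and miR-199b-3p shared bases 2 to 7 with miR-144. Each mature sequence had exactly 1 match in the genome and 1 entry in the count table.

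All 3 loci were on the minus strand. Mature miR-451 lay at chr12:45088838-45088859 and mature miR-144 at chr12:45088968-45088986, with 85 bases between their precursors. Both lay in an intron of ERAL1, a gene on the plus strand that encodes a GTPase needed for the mitochondrial ribosome. Mature miR-486 lay at chr17:10758868-10758889, in an intron of ANK1 and on the strand of that gene. The precursors are printed with the mature part in capitals, to show which arm of each hairpin was counted.
MIR486-1: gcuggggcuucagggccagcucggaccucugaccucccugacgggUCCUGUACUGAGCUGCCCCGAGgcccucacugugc
MIR451: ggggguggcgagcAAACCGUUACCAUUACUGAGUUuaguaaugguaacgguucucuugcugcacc
MIR144: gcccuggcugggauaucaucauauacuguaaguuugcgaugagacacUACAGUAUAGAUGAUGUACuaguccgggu
The mature part covered bases 14 to 35 of the 65 bases of MIR451, bases 48 to 66 of the 76 bases of MIR144 and bases 46 to 67 of the 80 bases of MIR486-1. Within 10000 bases, miR-451 and miR-144 had only each other as annotated miRNA neighbours, and miR-486 had none.

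The libraries held between 2570910 and 14311898 counts over the 479 entries of the table. Counts of all miRNAs other than the 3 members ran from 388380 to 6341052, with medians of 1107700 at day 11, 1626576 at day 20 and 3680722 at day 56. A level below is the number of counts per 1000000 counts of these other miRNAs, since a level per total count would fall wherever miR-486 rose. Treatment and age were taken from the column names, which the sample descriptions repeat. The sample characteristics gave the treatment of the column name in 19 libraries, its age in 14, and the pair of them in 6, so every group below rests on the column names. The reads carried no molecular identifiers, so intervals and upper limits cover counting error only.

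miR-486 had more counts than miR-451, and miR-451 more than miR-144, in 39 of 39 libraries. By total count over all libraries miR-486 ranked 1, miR-451 ranked 33 and miR-144 ranked 112 among the mature names. miR-486 was the most abundant mature miRNA in 36 libraries and exceeded all other miRNAs together in 30. Those 30 were all libraries of days 11 and 20 and 4 control libraries of day 56.

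miR-486 is given as its counts per count of all other miRNAs together. In control pigs the lowest, median and highest values were 2.24, 10.6 and 21.3 at day 11 (n = 8), 1.90, 3.82 and 19.4 at day 20, and 0.227, 0.786 and 3.05 at day 56. The control ranges of days 11 and 20 largely overlapped, and 6 of 8 libraries of day 56 lay below every control library of day 20. In topsoil pigs the values of replicates 1 to 5 were 20.1, 8.04, 8.82, 5.89 and 3.19 at day 11, and 17.5, 2.86, 8.28, 21.1 and 6.06 at day 20. At day 56 they were 0.612, 0.925, 0.932, 0.348 and 0.134. All topsoil values of day 56 lay below those of both earlier ages. Within pigs, miR-486 was lower at day 56 than at day 20 in 7 of 8 control and 5 of 5 topsoil pigs. The counts of other miRNAs, which form the denominator, had their highest median at day 56, and their part in this was not tested.

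For miR-451, the member cut by Argonaute, the lowest, median and highest control levels were 1191, 1722 and 5351 at day 11, 1362, 3889 and 11313 at day 20, and 222, 720 and 1343 at day 56. Every control library of day 56 lay below every control library of day 20, while days 11 and 20 overlapped. The gap was narrow, with control replicates 3 and 8 at 1343 at day 56 and control replicate 3 at 1362 at day 20. Their exact Poisson 95% intervals were 1305 to 1381, 1312 to 1375 and 1287 to 1440, and overlapped. How many of all miRNAs had such a gap between groups was not counted for any member. The topsoil levels of replicates 1 to 5 were 2559, 2486, 1742, 9118 and 2492 at day 11, and 872, 4423, 1182, 3826 and 1890 at day 20. At day 56 they were 1724, 823, 670, 698 and 437. In topsoil pigs the values of day 56 lay below all of day 11 and overlapped those of day 20. Here too the gap to day 11 was narrow. Replicate 1 at day 56 (1724, interval 1686 to 1762) and replicate 3 at day 11 (1742, interval 1667 to 1821) had overlapping intervals. From day 11 to day 20 miR-451 was higher in 7 of 8 control pigs and in 1 of 5 topsoil pigs. In control replicate 3 it went only from 1348 to 1362, within counting error.

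miR-144, the Dicer product of the same cluster, had at most 710 counts in a library. Its lowest, median and highest control levels were 1.02, 61.0 and 247 at day 11, 21.3, 132 and 291 at day 20, and 0, 15.3 and 37.2 at day 56. The 2 libraries with 0 counts were control replicates 1 and 6 at day 56, where 3 counts would be levels of 0.818 and 1.17. The topsoil levels of replicates 1 to 5 were 123, 42.9, 31.4, 201 and 82.5 at day 11, and 1.48, 206, 20.0, 123 and 13.1 at day 20. At day 56 they were 34.8, 30.8, 5.68, 13.3 and 3.94. The ages overlapped in both treatments. Control replicate 1 at day 11 and topsoil replicate 1 at day 20 had 1 count each, with exact Poisson 95% intervals of 0.0259 to 5.69 and 0.0376 to 8.27 around their levels. miR-144 was higher at day 20 than at day 11 in 8 of 8 control pigs and in 1 of 5 topsoil pigs. The Poisson intervals of these ages overlapped in control replicates 3, 4, 7 and 8 and in topsoil replicate 3. Such numbers of pigs were not counted over all miRNAs.

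**Figure D1:**
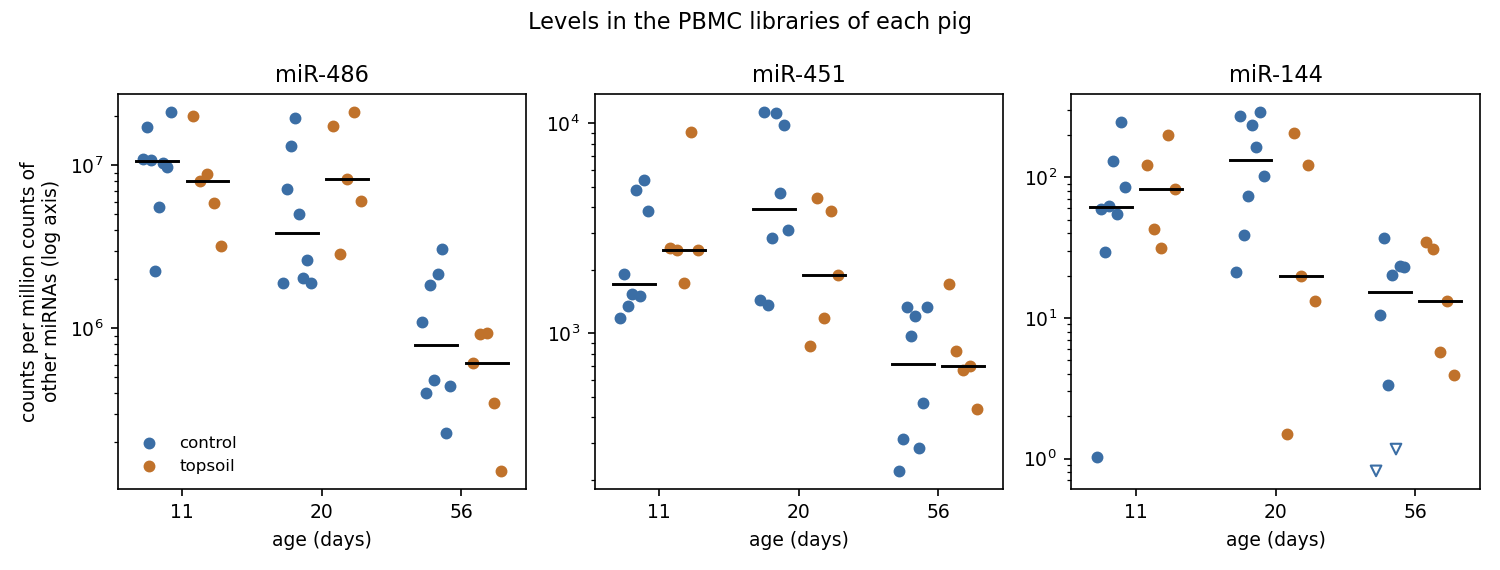
Level of each member (counts per 1000000 counts of other miRNAs, log axis) against age in days; points are libraries of control (blue) and topsoil (orange) pigs, black lines are group medians, and open triangles are the 2 libraries with 0 counts of miR-144, drawn at the level of 3 counts. The topsoil values of miR-486 at day 56 sit between 133660 and 932467, below all earlier topsoil values.

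By median, miR-486 was highest in control pigs at day 11, then in topsoil pigs at day 20, topsoil at day 11, control at day 20, control at day 56 and topsoil at day 56. miR-451 was highest in control pigs at day 20, then in topsoil at day 11, topsoil at day 20, control at day 11, control at day 56 and topsoil at day 56. The order for miR-144 was control at day 20, topsoil at day 11, control at day 11, topsoil at day 20, control at day 56 and topsoil at day 56. In each of the 3 orders, the ranges of neighbouring groups overlapped. Leaving out 1 of the 13 pigs changed the order for 8 pigs in miR-486, 11 in miR-451 and 12 in miR-144. The topsoil median of miR-486 at day 20 was 12.9 counts per count without replicate 2 or 5 and 11.8 without replicate 3, above the 10.6 of control pigs at day 11, and without replicate 4 it was 7.17, below the 8.43 of topsoil pigs at day 11. That of miR-144 was 71.5 without replicate 1 or 5 and 68.0 without replicate 3, above the 61.0 of control pigs at day 11. The 2 groups of day 56 changed places for miR-486 without control replicate 1, 3, 5 or 6 (control median 0.482) and for miR-451 without control replicate 3, 4, 5 or 8 (469) or topsoil replicate 3, 4 or 5. For miR-144 they did so without control replicate 3, 5, 7 or 8 (control median 10.4), and without topsoil replicate 3 or 5 (topsoil median 22.04) or 4 (18.2). Without control replicate 1, 2, 4 or 6 the control median of miR-144 at day 56 was 20.15, above the topsoil median of day 20. For miR-451, the control median of day 11 was 1911 without control replicate 1, 3, 4 or 6, and the topsoil median of day 20 was 2858 without topsoil replicate 1 or 3 and 1536 without topsoil replicate 2 or 4, and each changed places with a neighbour.

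At day 11, during the exposure, no member passed the test between 8 control and 5 topsoil libraries. The log2 difference of topsoil from control was -0.01 for miR-486 (SE 0.41, edgeR adjusted p = 0.999), 0.49 for miR-451 (SE 0.49, adjusted p = 0.988) and 0.20 for miR-144 (SE 0.75, adjusted p = 0.988). The ranges of the treatments overlapped for each member. The edgeR quasi-likelihood test ran over all 209 miRNAs with the RNA quality index as covariate, and miRNAs were called at a Benjamini-Hochberg adjusted p under 0.10. It called 0 miRNAs (0%), while 9 had an unadjusted p under 0.05 and DESeq2 called 1. The sign for miR-451 and miR-144 turned without topsoil replicate 4, to -0.17 and -0.26, and that for miR-144 also without control replicate 1. Without control replicate 7 they were at 0.95 and 0.96. With total counts as library size miR-451 was at 0.46 and miR-144 at 0.15, while the median of all tested miRNAs shifted by -0.19.

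At day 20, the end of the exposure, miR-451 and miR-144 had lower medians in topsoil than in control pigs and miR-486 a higher one, but none of the 3 was called. Of the 5 topsoil libraries, 2 lay below all control libraries for miR-451, 3 did for miR-144, and 1 lay above all of them for miR-486. The log2 difference was -1.22 for miR-451 (SE 0.60, edgeR adjusted p = 0.384), -1.15 for miR-144 (SE 0.94, adjusted p = 0.575) and 0.93 for miR-486 (SE 0.66, adjusted p = 0.552). With each pig left out in turn, miR-144 ran from -2.21 (without topsoil replicate 4) to -0.72 (without topsoil replicate 1), miR-451 from -1.60 to -0.95 and miR-486 from 0.57 to 1.38. With total counts as library size miR-451 was at -2.05 (adjusted p = 0.338), miR-144 at -2.16 (adjusted p = 0.380) and miR-486 at 0.18 (adjusted p = 0.718) by edgeR, while the median of all tested miRNAs shifted by -0.97. The median over all tested miRNAs was -0.26, and the ranges of the treatments overlapped for each member. edgeR called 1 of 209 miRNAs (0.478%), while 24 had an unadjusted p under 0.05 and DESeq2 called 9. The miRNA called by edgeR was miR-375, named after its values were seen (log2 difference 6.03, SE 1.38, edgeR adjusted p = 0.0853). It had a mean of only 34.5 counts in a library. The edgeR count was 0 without any of control replicates 1, 2, 3, 4, 6, 7 and 8 or topsoil replicates 3 and 5, and 7 without topsoil replicate 2.

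At day 56, after weaning, 4 of 8 control libraries lay above all topsoil libraries for miR-486. Its log2 difference was -1.13 (SE 0.59, unadjusted p = 0.0730, edgeR adjusted p = 0.965), which was not called. For miR-451 it was 0.28 (SE 0.48, adjusted p = 0.966) and for miR-144 0.12 (SE 1.09, adjusted p = 0.990). The treatments overlapped for all 3, and without topsoil replicate 1 the values of miR-451 and miR-144 were -0.16 and -0.59. The sign for miR-144 also turned without control replicate 6 or topsoil replicate 2. miR-486 ran from -1.59 to -0.69 with each pig left out in turn. With total counts miR-486 was at -0.49, miR-451 at 0.55 and miR-144 at 0.29, while the median of all tested miRNAs shifted by 0.32. edgeR called 0 of 209 miRNAs (0%), 3 had an unadjusted p under 0.05, and DESeq2 called 0.

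Change with age was fitted with edgeR over all 39 libraries. From day 11 to day 20 in control pigs, miR-451 differed by 0.98 on the log2 scale (SE 0.41, adjusted p = 0.300) and miR-144 by 1.21 (SE 0.73, adjusted p = 0.465), and neither was called. miR-486 differed by -1.05 (SE 0.63, no test). Leaving out each pig in turn gave -1.64 (without control replicate 4) to -0.62 (without control replicate 8) for miR-486, 0.74 to 1.16 for miR-451 and 0.88 to 1.39 for miR-144. With total counts as library size miR-451 was at 2.07 (edgeR adjusted p = 0.154), miR-144 at 2.25 (edgeR adjusted p = 0.247) and miR-486 at -0.17, while the median of all tested miRNAs shifted by 0.91. Called were 2 of 209 miRNAs (0.957%), miR-19b (1.25) and miR-296-3p (-0.80), named after their values were seen. Leaving out any pig but topsoil replicate 3 lowered that count to 1 or 0.

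In topsoil pigs the same step gave -0.32 for miR-451 (SE 0.55, edgeR adjusted p = 0.9995), -0.81 for miR-144 (SE 1.03, adjusted p = 0.9995) and 0.30 for miR-486 (SE 0.75, no test). No member was called, and without topsoil replicate 4 the values of miR-451 and miR-486 were 0.05 and -0.27. miR-144 ran from -1.39 without topsoil replicate 2 to -0.17 without topsoil replicate 5, and was at -1.57 in the limma fit and at -0.51 with no replicate block. With total counts miR-451 was at -0.29 and miR-144 at -0.84. edgeR called 0 of 209 miRNAs (0%), 5 had an unadjusted p under 0.05, DESeq2 called 5 and limma called 0.

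From day 20 to day 56, after soil and lactation had ended, the log2 difference in control pigs was -2.87 for miR-451 (SE 0.47, edgeR adjusted p = 8.9e-05) and -4.10 for miR-144 (SE 0.89, edgeR adjusted p = 0.00183). Both were called, but since the 2 miRNAs were singled out after their values had been seen, these p-values are not independent evidence of a change. Each was lower at day 56 in 8 of 8 control pigs. In control replicate 3 the levels differed little, from 1362 to 1343 for miR-451 and from 38.6 to 37.2 for miR-144. In this comparison 30 of 209 miRNAs (14.4%) were called, 25 of them (12%) lower at the later age, and the median log2 difference was -0.29. miR-486 differed by -2.32 (SE 0.64, no test), in a range of -2.94 (without control replicate 6) to -1.81 (without control replicate 4) with each pig left out. Both differences passed without each pig in turn, with miR-144 at -4.76 without control replicate 3 and -3.51 without control replicate 6. They also passed with no replicate block (miR-451 -2.94, adjusted p = 0.000258; miR-144 -3.25, adjusted p = 0.0109). With total counts as library size, members included, they were -1.73 and -2.81 and did not pass (adjusted p = 0.162 for each), and miR-486 was at -0.83, while the median of all tested miRNAs shifted by 1.18; over all alternatives the adjusted p ran from 3.2e-08 to 0.162 for miR-451 and from 2.1e-07 to 0.162 for miR-144.

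In topsoil pigs the values for the same step were -1.63 for miR-451 (SE 0.60, edgeR adjusted p = 0.145) and -2.06 for miR-144 (SE 1.12, adjusted p = 0.324). Each was lower at day 56 in 4 of 5 topsoil pigs, and neither was called. For miR-486 the value was -4.17 (SE 0.86, no test), a description only, since it was selected on its values by age. Called were 13 miRNAs (6.22%), 6 without topsoil replicate 4 and 2 without topsoil replicate 5. miR-451 passed with DESeq2 (adjusted p = 0.0277), without control replicate 3 (0.0931) and without topsoil replicate 1 (0.0409), in a range of 0.0277 to 0.554 over its alternatives. miR-451 ran over the pigs left out in turn from -2.23 to -1.40, miR-144 from -2.86 to -1.69 and miR-486 from -4.73 to -3.55, and limma gave miR-144 -1.01. With total counts miR-486 was at -1.42 and miR-451 and miR-144 at 0.66 and 0.23, while the median of all tested miRNAs shifted by 2.37.

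Calls in control and not in topsoil pigs do not show that the treatments differ, so the treatment by age interaction was tested. The extra change of topsoil over control pigs from day 11 to day 20 was -1.30 for miR-451 (SE 0.71) and -2.03 for miR-144 (SE 1.30). From day 20 to day 56 it was 1.24 (SE 0.70) and 2.04 (SE 1.26). The joint edgeR test over 39 libraries gave an adjusted p of 0.629 for miR-451 and 0.691 for miR-144, so neither was called. For miR-486 the values were 1.35 and -1.85 (SE 0.99 for each, no test). edgeR called 0 of 209 miRNAs (0%), 15 had an unadjusted p under 0.05, DESeq2 called 0 and limma called 2.

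Ratios of counts within a library need no library size. For each count of miR-451 there were between 266 and 20034 counts of miR-486, a 75.4-fold range over the 39 libraries. The median log2 ratio of miR-451 to miR-486 was -12.59, -9.28 and -10.37 in control pigs at days 11, 20 and 56, and -11.66, -12.43 and -8.96 in topsoil pigs. At day 20 control libraries lay between -13.24 and -8.05 and topsoil libraries between -14.29 and -9.34, so the treatments overlapped. The mean difference there was -2.03 (two-sided exact permutation p = 0.0855, adjusted p = 0.385 over 9 ratio tests), and it ran from -2.72 without topsoil replicate 2 to -1.48 without topsoil replicate 1.

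The log2 ratio of miR-144 to miR-451, products of neighbouring hairpins, had medians of -5.11, -5.21 and -5.53 in control pigs and -5.50, -5.88 and -5.71 in topsoil pigs. The 2 libraries with 0 counts of miR-144 were left out of its ratios, which left 6 control libraries at day 56. Topsoil differed from control by 0.37 at day 11, -1.04 at day 20 and -0.22 at day 56 (two-sided exact permutation p = 0.883, 0.145 and 0.786, adjusted p = 0.883, 0.418 and 0.883). The value of day 20 ran from -1.52 without topsoil replicate 2 to -0.32 without topsoil replicate 1, which had 1 count of miR-144. That of day 11 turned to -0.28 without control replicate 1, and that of day 56 to 0.77 with 1 count added. Within pigs the ratio differed by -0.17 from day 11 to day 20 (SD 2.02, 13 pigs) and by -0.10 from day 20 to day 56 (SD 1.57, 11 pigs), with two-sided exact permutation p of 0.756 and 0.796 (adjusted p = 0.796 for each, over 6 tests that include the ratios to miR-486). Signs were mixed, with the ratio higher at the later age in 5 of 13 and 4 of 11 pigs. With each pig left out the within-pig differences ran from -0.53 to 0.21 and from -0.47 to 0.18.

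The log2 ratio of miR-144 to miR-486 ran from -23.49 to -13.14, and its 2 lowest values came from the libraries with 1 count of miR-144. At day 20 the mean difference of topsoil from control was -3.07 (two-sided exact permutation p = 0.0606, adjusted p = 0.385). It ran from -4.24 without topsoil replicate 2 to -1.80 without topsoil replicate 1, the library at -23.49. At days 11 and 56 the mean difference was 1.05 and 0.16 (two-sided exact permutation p = 0.453 and 0.842, adjusted p = 0.6795 and 0.8834). None of the 9 ratio tests between treatments passed an adjusted p of 0.10, with a smallest possible p of 0.000777 for 8 against 5 libraries and 0.00216 for 6 against 5. Within pigs the log2 ratios to miR-486 differed by 0.89 for miR-451 and 0.71 for miR-144 from day 11 to day 20, and by 0.87 and 1.52 from day 20 to day 56. These are given as a description, since miR-486 was selected on its values by age; their p-values entered the adjustment over 6 tests and are not used as evidence.

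Between pigs of the same age, miR-144 and miR-451 rose and fell together. Over 13 pigs Pearson's r of their log2 levels was 0.723 at day 11, 0.896 at day 20 and 0.756 at day 56 (two-sided permutation p = 0.00516, 3e-05 and 0.00129, adjusted p = 0.0155, 0.00027 and 0.0058 over 9 relations). Spearman's rho was 0.918, 0.940 and 0.731 (permutation p = 1e-05, 1e-05 and 0.00595, adjusted p = 4.5e-05, 4.5e-05 and 0.0178), where 1e-05 is the smallest p that 100000 permutations can give. Without the 2 pigs farthest from the median of miR-451, r was 0.661, 0.903 and 0.619, and in the 8 control pigs alone 0.725, 0.959 and 0.740. Over libraries with more than 3 counts of miR-144, a choice made after seeing the data, r was 0.853 at day 11 (12 pigs), 0.908 at day 20 (12 pigs) and 0.487 at day 56 (11 pigs, permutation p = 0.130), where rho was 0.555 (permutation p = 0.0825). That choice leaves out low values of a correlated measure, which narrows its range, so it does not show whether the relation at day 56 depends on these libraries. Its r at day 56 ran from 0.653 to 0.830 with each pig left out in turn.

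miR-486 showed no such relation with either. With miR-451 its r was -0.04, -0.31 and 0.08 at days 11, 20 and 56 (permutation p = 0.890, 0.297 and 0.792, adjusted p = 0.890, 0.535 and 0.890), and rho was -0.15, -0.30 and 0.05 (permutation p = 0.632, 0.325 and 0.863). With miR-144 its r was -0.11, -0.36 and -0.27 (permutation p = 0.711, 0.226 and 0.377, adjusted p = 0.890, 0.509 and 0.565), and rho was -0.18, -0.27 and -0.07 (permutation p = 0.556, 0.364 and 0.819). Without the 2 pigs farthest from the median of miR-486, r was -0.35, -0.41 and 0.25 with miR-451 and -0.09, -0.56 and -0.09 with miR-144. All levels share a denominator. With total counts, of which miR-486 is itself a large part, r of miR-451 with miR-486 was -0.613 at day 11 and -0.703 at day 20 and r of miR-144 with miR-486 was -0.640 at day 20, each past the threshold.

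**Figure D2:**
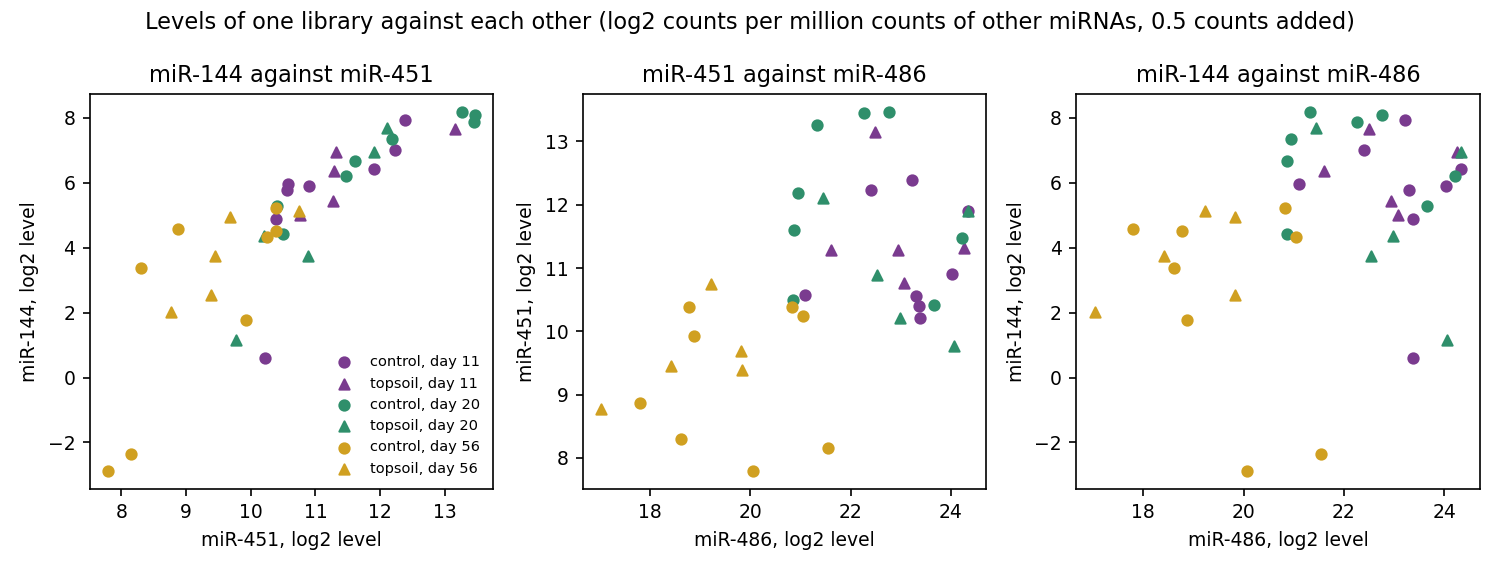
Log2 levels of the members against each other in the 39 libraries (counts per 1000000 counts of other miRNAs, 0.5 counts added), with colour for age and shape for treatment. miR-144 follows miR-451 within each age (Pearson's r of 0.723, 0.896 and 0.756 over 13 pigs).

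The miRNAs most like each member were ranked by the mean over ages of Spearman's rho over 13 pigs, among 208 others. Nearest to miR-451 were miR-144 (mean rho 0.863), miR-16 (0.775) and miR-186-5p (0.764). Nearest to miR-144 were miR-451 (0.863), miR-186-5p (0.824) and miR-335 (0.802), the last with a mean of 13.4 counts in a library. miR-335 had libraries with 0 counts in every group, and a median of 0 in control pigs at day 11 and topsoil pigs at day 20. Libraries with 0 counts are ranked by the denominator alone, so its rho may partly reflect depth. For miR-486 they were miR-191 (0.733), miR-10a-5p (0.720) and miR-342 (0.711), and miR-451 came at rank 102 and miR-144 at rank 119. The median of the mean rho over all others was 0.203 for miR-451, 0.245 for miR-144 and -0.149 for miR-486.

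Other miRNAs known from red cells formed a list of 12, of which 9 were tested; miR-96-5p was too rare, and miR-25 and miR-93 were not analysed here. Of the 9, 7 had a mean rho above 0 with miR-451 (median 0.438), 7 with miR-144 (median 0.482) and 3 with miR-486 (median -0.330). Over all 208 others, 152 were above 0 with miR-451, 160 with miR-144 and 59 with miR-486, so the counts of the list were near those of all miRNAs. miR-16 stood at 0.775 with miR-451 and -0.355 with miR-486. The order was the other way for miR-182, the most abundant of the list, at -0.196 with miR-451 and 0.469 with miR-486.

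The summed level of the red cell list had medians of 78355, 62283 and 35368 in control pigs at days 11, 20 and 56, and of 84136, 71834 and 35866 in topsoil pigs. From day 20 to day 56 in control pigs 1 of the 9 was called lower and 0 were called higher. miR-16 fell by 0.82 on the log2 scale (SE 0.26, edgeR adjusted p = 0.0382) and was lower in 6 of 8 pigs, beside 25 of 209 miRNAs (12%) called lower in all. The list's median was -0.57, beside -0.29 over all tested, with miR-182 at -0.95 (SE 0.60, adjusted p = 0.401) and miR-92a at -0.42 (SE 0.24, adjusted p = 0.339). In the other direction, miR-363 was at 0.51 (SE 0.26, edgeR adjusted p = 0.2515) and was not called. In topsoil pigs edgeR called 0 of the 9 over this step, 1 had an unadjusted p under 0.05 and DESeq2 called 1, with a list median of 0.65 beside 0.27. Over all 209 miRNAs edgeR called 13 (6.22%), 39 had an unadjusted p under 0.05 and DESeq2 called 38. In the list, the 1 with an unadjusted p under 0.05 was miR-182, which was at -1.80 (SE 0.74, unadjusted p = 0.0209, edgeR adjusted p = 0.162), opposite in sign to that median. Between treatments edgeR called 0 of the 9 at each age, 0 had an unadjusted p under 0.05 and DESeq2 called 0. Over all 209 at days 11, 20 and 56, edgeR called 0, 1 and 0 (0%, 0.478% and 0%), 9, 24 and 3 had an unadjusted p under 0.05 and DESeq2 called 1, 9 and 0. The part of these miRNAs in the values of the members was not tested.

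Lymphocytes are a main cell type of PBMC. The lymphocyte miRNAs miR-150, miR-342, miR-155-5p and miR-181a had mean counts of 36417, 2835, 10.44 and 631653 in a library. Their summed level had medians of 213939, 170254 and 318913 in control pigs at days 11, 20 and 56, and of 199682, 192749 and 307213 in topsoil pigs, with miR-181a the most abundant. From day 20 to day 56 in control pigs 2 of the 4 were called higher, miR-150 by 1.13 on the log2 scale (SE 0.25, edgeR adjusted p = 0.00237, higher in 8 of 8 pigs) and miR-181a by 0.86 (SE 0.21, edgeR adjusted p = 0.00457, higher in 7 of 8), beside 5 of 209 miRNAs (2.39%) called higher in all. In topsoil pigs 1 of the 4 was called higher, miR-150 by 1.11 (SE 0.33, edgeR adjusted p = 0.0387, higher in 5 of 5), beside 5 of 209 (2.39%). The others were not called: in topsoil pigs miR-181a was at 0.55 (SE 0.27, edgeR adjusted p = 0.269), miR-342 at -0.87 (SE 0.48, adjusted p = 0.343) and miR-155-5p at 1.41 (SE 1.66, adjusted p = 0.669), and in control pigs miR-342 was at 0.18 (SE 0.38, adjusted p = 0.861) and miR-155-5p at -0.83 (SE 1.15, adjusted p = 0.759). miR-150 had the lowest mean rho with miR-451 of all 208 miRNAs, -0.590. Its rho with miR-451 was -0.775, -0.813 and -0.181 at days 11, 20 and 56. The mean rho with miR-451 was -0.511 for miR-342 and -0.467 for miR-181a, and miR-155-5p went the other way at 0.123. These miRNAs are part of the denominator of the members' levels, and their part in the values of miR-451 and miR-144 was not tested.

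miR-142-3p and miR-142-5p, found in all leukocytes, had summed medians of 6000, 9719 and 12784 in control pigs and 6790, 6077 and 15534 in topsoil pigs. Their mean rho was 0.511 and 0.603 with miR-451, and -0.520 and -0.324 with miR-486. From day 20 to day 56 in topsoil pigs 1 of the 2 was called higher, miR-142-5p by 1.20 (SE 0.37, edgeR adjusted p = 0.0476, higher in 5 of 5 pigs), beside 5 of 209 (2.39%) called higher in all. In control pigs edgeR called 0 of the 2 over this step, while 1 had an unadjusted p under 0.05 and DESeq2 called 1. Over all 209 miRNAs edgeR called 30 (14.4%), 47 had an unadjusted p under 0.05 and DESeq2 called 45. The myeloid miR-223 had group medians between 67.2 and 187, and the platelet and endothelial miR-126-3p and miR-126-5p, of which the latter was more abundant, had summed medians between 0 and 57.5. edgeR called none of these last 3 in any comparison; at day 20 between treatments both miR-126 products had an unadjusted p under 0.05, as had 24 of all 209, and DESeq2 called 1 of them and 9 of all 209, and in topsoil pigs from day 20 to day 56 miR-126-5p had an unadjusted p of 0.0199 and DESeq2 called 1 of them, beside 39 and 38 of all 209. No listed miRNA in the table was at 0 in every library.

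The log2 ratio of miR-451 to miR-23a, used in human plasma as a sign of red cell RNA, is given with no threshold. In control pigs its lowest and median values were 2.64 and 3.50 at day 11, 3.11 and 4.85 at day 20, and 0.10 and 1.37 at day 56, where the highest was 2.65. The topsoil medians were 4.09, 3.83 and 2.22. Every control library of day 56 lay below every control library of day 20. In topsoil pigs the ages overlapped, with a highest value of 3.369 at day 56 beside lowest values of 3.357 at day 11 and 3.265 at day 20. The ratio has the counts of miR-451 as its numerator, so it is not separate from the level of miR-451. The part of miR-23a in it was not tested.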

How the data were processed

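The authors deposited counts, whole numbers per mature miRNA and precursor with no normalization, from reads trimmed with Trim Galore 0.4.5 and counted with miRDeep2 (version not stated) on Sscrofa11.1. The entry with the largest total was kept for each mature name. Log2 levels had 0.5 counts added. edgeR 4.0.16 (R 4.3.3) was fitted after removing miRNAs seen in fewer than 17 libraries or with a mean of 2 reads or less, with the counts of all miRNAs other than the members as library size; SE is the log2 difference divided by the root of F. The RNA quality index of each library came from the study's tables. Treatments were compared at each age, and ages with pig as replicate block (for miR-451 from day 20 to day 56 in control pigs, -2.87 with and -2.94 with no replicate block). The same replicate number within a treatment is the same animal per the labels; deviations from group means correlated by 0.0506 on average within a pig and -0.00346 between pigs. Alternatives used DESeq2 1.42.0, limma 3.58.1, other scalings and filters, and each pig left out. Ratios and correlations used permutations in Python 3.11.15 (numpy 2.4.6, scipy 1.17.1). The fits were tested on simulated data, where they missed some of the changed miRNAs. Named miRNAs were the members, the 3 most like each, up to 6 of each marker list by mean count, and miRNA neighbours. The members and lists were chosen with earlier results of these data known. The mRNA counts were not used here.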

Additional observations from a re-analysis of the deposited data

Results flagged for a closer look

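The levels of the 3 members, their 3 log2 ratios and the counts of other miRNAs were searched for a library far from the rest in 42 groups, and 4 were found; chance gives such a gap in about 1 in 20 groups. The level of miR-451 in topsoil replicate 4 at day 11 was 9118, with the next at 2559. The level of miR-144 in control replicate 1 at day 11 was 1.02, with the next at 29.4. That library, with 1 count of miR-144, also had a log2 ratio of miR-144 to miR-486 of -23.35, with the next at -18.49, and of miR-144 to miR-451 of -10.19, with the next at -5.52.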

How the results depend on the processing

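Over 73 results and 1235 alternatives, 1126 kept their direction and side of the threshold or moved by less than the spread, and 34 results changed under none; where a value changed, the cause was not tested. The counts of called miRNAs between treatments were 1 at day 11 with DESeq2, and at day 20 were 2 with upper-quartile scaling, 0 with every entry, 2 with no filter and 9 with DESeq2. For control day 20 against 11 they were 11 with upper-quartile scaling, 16 with DESeq2, 4 with limma and 0 with total counts, no red cell list in the library size, no filter, no quality index or no replicate block. For control day 56 against 20 the count was 7 with total counts, for topsoil day 20 against 11 it was 5 with DESeq2, and for the interaction 2 with limma. For topsoil day 56 against 20 it was 20 with upper-quartile scaling, 106 with total counts, 38 with DESeq2, 23 with no quality index, 25 with no replicate block and 30 with limma. With each pig left out these counts ran from 0 to 7 (day 20), 0 to 2 (control day 20 against 11) and 2 to 18 (topsoil day 56 against 20).

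The log2 difference of miR-486 between treatments at day 11 was 0.16 with upper-quartile scaling, 0.18 with TMM, 0.0090 with total counts, 0.0202 with no red cell list in the library size and 0.12 with DESeq2. With total counts, control day 56 against 20 was -1.73 for miR-451 and -2.81 for miR-144, miR-486 in topsoil pigs was -0.001488 for day 20 against 11 and -1.42 for day 56 against 20, and miR-451 and miR-144 in topsoil pigs were 0.66 and 0.23 for day 56 against 20; DESeq2 gave miR-451 -1.60 there. With each pig left out, the differences between treatments at day 11 ran from -0.27 to 0.17 (miR-486), -0.17 to 0.95 (miR-451) and -0.26 to 0.96 (miR-144), and at day 56 from -0.16 to 0.50 (miR-451) and -0.59 to 0.45 (miR-144). In topsoil pigs day 20 against 11 ran from -0.27 to 0.66 (miR-486) and -0.69 to 0.0460 (miR-451), and day 56 against 20 from -2.23 to -1.40 (miR-451).

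With only the member itself out of the denominator, median levels of miR-451 were 153 and 1233 in control pigs and 274.8 and 173.1 in topsoil pigs at days 11 and 20, and those of miR-144 were 4.34 and 34.1, and 5.82 and 2.15. Over every entry miR-451 in topsoil pigs at day 56 was 413. The difference between treatments in log2 miR-144 to miR-451 at day 56 was 0.77 with 1 count added. With each pig left out it ran from -0.71 to 0.0634, and at day 11 from -0.28 to 0.54. For miR-144 to miR-486 the difference at day 56 ran from -0.19 to 0.69. Within pigs the log2 ratio of miR-144 to miR-451 differed by -0.53 to 0.21 for day 20 against 11. For day 56 against 20 this within-pig difference ran from -0.47 to 0.18.

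Over libraries with more than 3 counts of miR-144, chosen after seeing the data, r at day 56 was 0.487 for miR-144 with miR-451 (adjusted p = 0.381) and 0.445 for miR-144 with miR-486. For miR-451 with miR-486, r was 0.0681 at day 11 and -0.0278 at day 56 with upper-quartile scaling, and -0.613, -0.703 and -0.345 at days 11, 20 and 56 with total counts, which gave -0.640 for miR-144 with miR-486 at day 20. With each pig left out, r of miR-451 with miR-486 ran from -0.252 to 0.0840 at day 11 and -0.0305 to 0.345 at day 56, and r of miR-144 with miR-486 from -0.393 to 0.0309 at day 56. At 0 or 1 count of miR-144, which 4 libraries had, depth limits what its level and ratios can show.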
